A study of Rattus norvegicus with 9 samples.

Results

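miR-128-3p is a microRNA that is abundant in brain and is made from a pair of genes, Mir128-1 and Mir128-2. In a table of 5794 small RNA sequences from the rat hippocampal CA1 region, 40 entries shared an exact run of at least 16 bases, on the same strand, with the 22 nt entry novel_2237_x2877 or the 18 nt entry novel_3_x7189481, and these 40 are the miR-128-3p forms described here. All 40 carry names of the form novel_N_xN, as against the rno_piR names that the table also holds, and none carries a rno_piR name. Of the 40, 29 were above 0 in at least 1 library, and the other 11 were at 0 or blank in all 9.

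The tissue came from adult male Wistar rats of 7 to 8 weeks, in 3 Sham, 3 tGCI26h and 3 HPC0h libraries. The name tGCI is read here as transient global cerebral ischemia. The labels tGCI26h and HPC0h carry the hours 26 and 0. The labels neither spell out HPC nor say whether the HPC0h rats also had ischemia, how ischemia was made, or whether a library is 1 animal or a pool. The authors had scaled the tag counts so that libraries sum to nearly the same total (961372 to 992081) and rounded them, so sequencing depth is unknown and no counting interval is given. In bulk tissue, fewer cells of a type and less RNA per cell cannot be told apart. Libraries are named by group and a letter. The 7 libraries lettered a, b or c, called numbered here, have column headings that join 3 numbers with dashes. What these numbers stand for is not stated. The heading of Sham u holds no number, and that of tGCI26h u holds only the 26 of its group. Sham u and tGCI26h u stood apart from the other 7 in nearly every form described below, so the values of single libraries and the comparisons in the numbered libraries are given beside the results that include them.

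MicroRNAs guide Argonaute proteins to messenger RNAs mainly by the seed, bases 2 to 8 from the 5′ end. Their hairpin precursors are cut by Drosha and Dicer at slightly variable places, and terminal nucleotidyl transferases can add bases to the 3′ end that the genome does not encode, so that 1 microRNA exists as a family of forms. In mice, miR-128 is known to restrain the excitability of neurons, and mice that lack Mir128-2 have seizures. The hairpins below are from RefSeq (build GRCr8), with the 21 nt mature miR-128-3p in capitals. Of the 40 forms, 27 are found whole in neither hairpin, and so are 18 of the 29 above 0. Mir128-1 lies at chr13:42251884-42251965 on the + strand, within the span of the protein-coding gene R3hdm1. Mir128-2 lies at chr8:120963795-120963878 on the - strand, within the spans of the protein-coding gene Arpp21 and the lncRNA LOC120094269.
Mir128-1: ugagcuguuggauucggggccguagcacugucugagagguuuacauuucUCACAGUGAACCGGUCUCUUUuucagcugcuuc
Mir128-2: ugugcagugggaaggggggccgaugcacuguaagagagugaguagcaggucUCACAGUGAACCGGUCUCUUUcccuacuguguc
Both hairpins hold the same mature sequence, and they differ at the base that follows it, which is U in Mir128-1 and C in Mir128-2.

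The 3 most abundant forms are 22 nt long and differ in that next base. They are shown with the 21 nt form, which is identical to the RefSeq mature sequence, and with the shorter forms of the same 5′ end. Capitals mark the seed and, in the 22 nt forms, the last base.
novel_2237_x2877: uCACAGUGaaccggucucuuuU
novel_4016_x1232: uCACAGUGaaccggucucuuuA
novel_12796_x247: uCACAGUGaaccggucucuuuC
novel_433_x32354: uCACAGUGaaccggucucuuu
novel_84_x348008: uCACAGUGaaccggucucuu
novel_14_x3176134: uCACAGUGaaccggucucu
novel_3_x7189481: uCACAGUGaaccggucuc
The form ending in U is found whole in the Mir128-1 hairpin only, the form ending in C in the Mir128-2 hairpin only, and the form ending in A in neither. The forms of 18 to 21 nt shown here are in both.

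novel_2237_x2877, the form ending in U, ranked 4 by mean value in the whole table. Its tags numbered 41210, 47032 and 22192 for Sham a, b and u, 40910, 41356 and 21523 for tGCI26h a, b and u, and 49345, 46485 and 40486 for HPC0h a, b and c. novel_4016_x1232, the form ending in A, ranked 10, with 26379, 29384 and 10439 in Sham, 25891, 25147 and 8127 in tGCI26h and 29568, 25113 and 24893 in HPC0h, in the same order of libraries. novel_12796_x247, the form ending in C, ranked 14, with 17351, 19450 and 8581 in Sham, 16423, 16352 and 9268 in tGCI26h and 21245, 17993 and 17874 in HPC0h. In all 3 forms Sham u and tGCI26h u were the lowest libraries, and the numbered libraries of the 3 groups lay close together, as the plot of the most abundant forms shows. novel_433_x32354, the 21 nt mature sequence, ranked 32 and did not share that pattern. It held 6671, 7314 and 7366 in Sham, 6463, 6577 and 7212 in tGCI26h and 8074, 7527 and 7948 in HPC0h, so that Sham u and tGCI26h u were the highest of their groups and every HPC0h library was above every other library. The share of all entries that separate in this way over the 9 libraries was not counted. The form next in abundance, novel_8179_x454, had a mean of 998 tags.

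**Figure D1:**
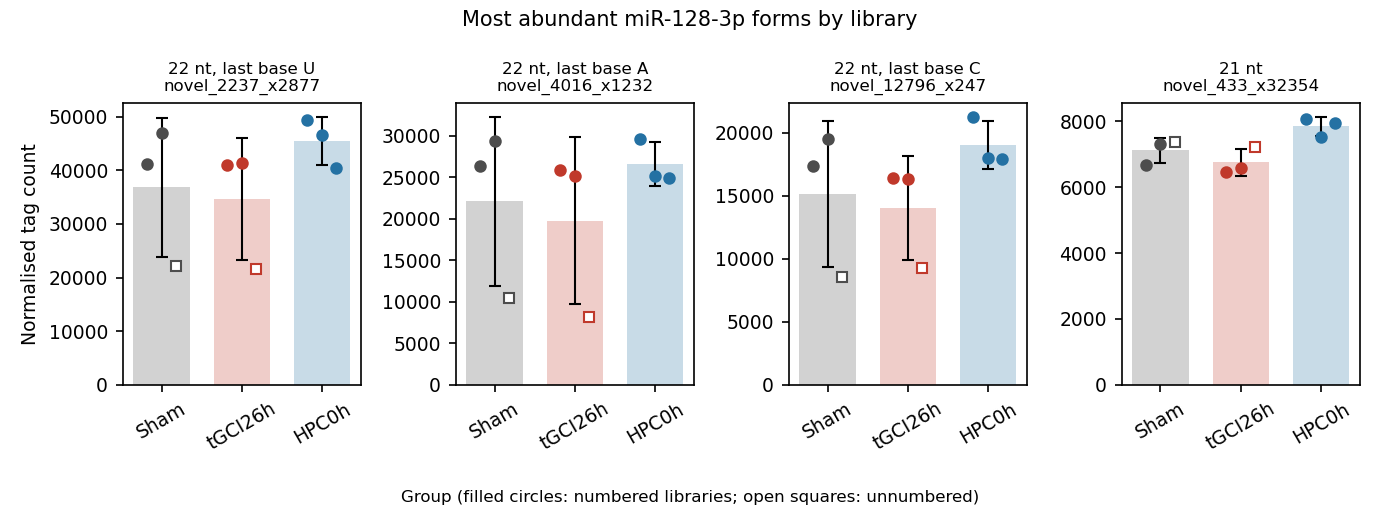
Normalised tag count of the 4 most abundant miR-128-3p forms in each library, with the group mean as a bar and the SD (n = 3) as an error bar; filled circles are numbered libraries and open squares are Sham u and tGCI26h u. The open squares are far below the circles in the 3 forms of 22 nt and above the circles of their own group, but below those of HPC0h, in the 21 nt form.

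The entries are not separate counts, and this bears on every sum over them. Among the 40 forms there are 71 pairs in which the shorter sequence lies whole within the longer, and in all 71 the longer entry had at least the value of the shorter in all 9 libraries. The same held for all 23774 such pairs of the whole table, of which 12077 had a shorter entry above 0 in some library. Some entries added nothing to what they contain: novel_932_x11261 (a C before the first base), novel_2208_x2946 (a C after the last base, where both hairpins have U) and novel_12461_x256 (a 5′ AA that neither hairpin has) had 7, 7 and 121 tags for Sham, 6, 6 and 69 for tGCI26h and 7, 8 and 9 for HPC0h, the very values of novel_3_x7189481. Of the 22 forms above 0 that contain another of the 40, 4 equalled the largest entry they contain in every library. Neither the labels nor the table say how a read that matches several entries was counted. A difference between an entry and the one it contains is called its excess here, and a sum of entries can hold the same tags more than once.

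The 40 deposited entries together came to 93619, 105174 and 55193 tags for Sham a, b and u, 91517, 91265 and 53838 for tGCI26h a, b and u, and 110363, 99247 and 93600 for HPC0h a, b and c. As a share of the library total the mean was 8.60% ± 2.54 for Sham (SD, n = 3), 7.97% ± 2.17 for tGCI26h (n = 3) and 10.2% ± 0.861 for HPC0h (n = 3). The numbered libraries alone lay between 9.21% and 11.1%, and the shares of Sham u and tGCI26h u were 5.74% and 5.47%. A sum without the repeats, made of the 21 nt entry and the excess of the 3 forms of 22 nt over it, gave 7.23%, 8.19% and 2.75% in Sham, 7.09%, 7.04% and 2.49% in tGCI26h and 8.49%, 7.53% and 6.81% in HPC0h. By this measure Sham u and tGCI26h u held less than any numbered library, and among the numbered libraries the Sham values lay inside the HPC0h range and both tGCI26h values lay below Sham and inside the HPC0h range.

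Forms of the same 5′ end had steeply higher values with length. Each of them contains the shorter ones, and no entry of the table was below one it contains. The direction of this rise is therefore not a separate result. In the numbered libraries the mean was 7.14 tags at 18 nt (novel_3_x7189481), 52.6 at 19 nt (novel_14_x3176134), 415 at 20 nt (novel_84_x348008), 7225 at 21 nt (novel_433_x32354) and 43832 at 22 nt (novel_2237_x2877). None of the 40 was longer than 22 nt. The short forms were far higher in the 2 unnumbered libraries. For novel_3_x7189481 the Sham values a, b and u were 7, 7 and 121 tags, the tGCI26h values 6, 6 and 69 and the HPC0h values 7, 8 and 9. novel_14_x3176134 held 52, 49 and 527, then 46, 45 and 607, then 51, 58 and 67. novel_84_x348008 held 400, 393 and 1220, then 371, 377 and 1372, then 431, 440 and 491. The lines of Sham u and tGCI26h u thus cross those of the other libraries near 21 nt. The 20 nt entry amounted to 4.61% of the sum without repeats in Sham u and 5.60% in tGCI26h u, against 0.484% to 0.729% in the 7 numbered libraries.

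**Figure D2:**
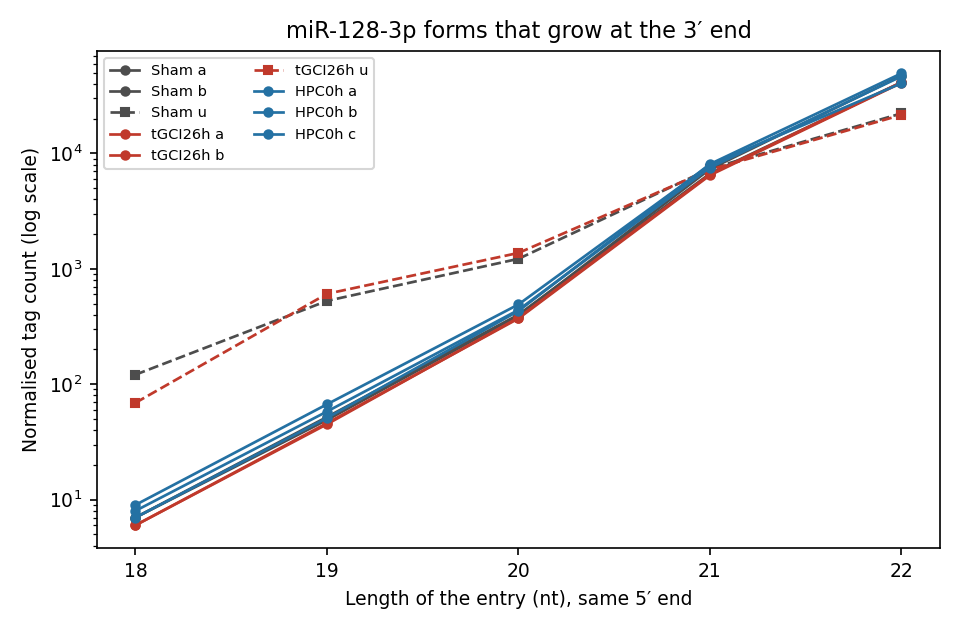
Normalised tag count (log scale) of the miR-128-3p forms of 18 to 22 nt that share a 5′ end, against length in nt, with a line for each library. Each form contains the shorter ones, so the values are not separate counts. The 7 numbered libraries run together from 6 to 9 tags at 18 nt to 40486 to 49345 at 22 nt, and the dashed lines of Sham u and tGCI26h u start at 121 and 69 and end at 22192 and 21523.

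The same excess of short entries in Sham u and tGCI26h u was looked for in 3 other abundant microRNAs, with entries found by the same 16-base rule. Of the sum of the 40 miR-128-3p entries, those of at most 20 nt made up 0.664% to 0.958% in the numbered libraries, 6.93% in Sham u and 6.83% in tGCI26h u. For 45 entries of miR-9-5p, a microRNA known for its part in neurogenesis, the same share was 0.694% to 0.762%, then 2.76% and 2.43%. For 31 entries of miR-99a-5p it was 0.677% to 0.979%, then 3.86% and 2.13%. For 33 entries of miR-7-5p it was 0.0624% to 0.151% and 0.262% in Sham u, and all of its entries were at 0 or blank in tGCI26h u. A higher share of short entries in the unnumbered libraries was therefore seen in the other families too where they had values, and no test of a difference between families was made. The most abundant entry was 22 nt long in miR-128-3p, 23 in miR-9-5p, 24 in miR-7-5p and 21 in miR-99a-5p. The cutoff of 20 nt thus differs in meaning, and the sums can hold the same tags more than once. The sizes of the shares cannot be compared between families. What sets the unnumbered libraries apart was not tested.

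In the numbered libraries the last base of the 22 nt forms was similar in the 3 groups. The U, A and C forms exceeded the 21 nt form by 34539, 19708 and 10680 tags in Sham a, by 34447, 19428 and 9960 in tGCI26h a and by 41271, 21494 and 13171 in HPC0h a. The form ending in U made up 53.2% and 53.7% of the summed excess in Sham a and b, 54.0% and 55.1% in tGCI26h a and b, and 54.3%, 58.1% and 54.8% in HPC0h a, b and c. The form ending in A made up 30.4% and 29.9%, then 30.4% and 29.4%, then 28.3%, 26.2% and 28.5%. The form ending in C made up the remaining 16.4% and 16.4%, then 15.6% and 15.5%, then 17.3%, 15.6% and 16.7%. In the A form, which neither hairpin encodes, the 3 HPC0h libraries lay just below the 4 others that are numbered; this was seen after the values were known and carries no test. Sham u had 77.6%, 16.1% and 6.36% and tGCI26h u 82.8%, 5.29% and 11.9% in U, A and C, outside the range of the numbered libraries for every base.

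**Figure D3:**
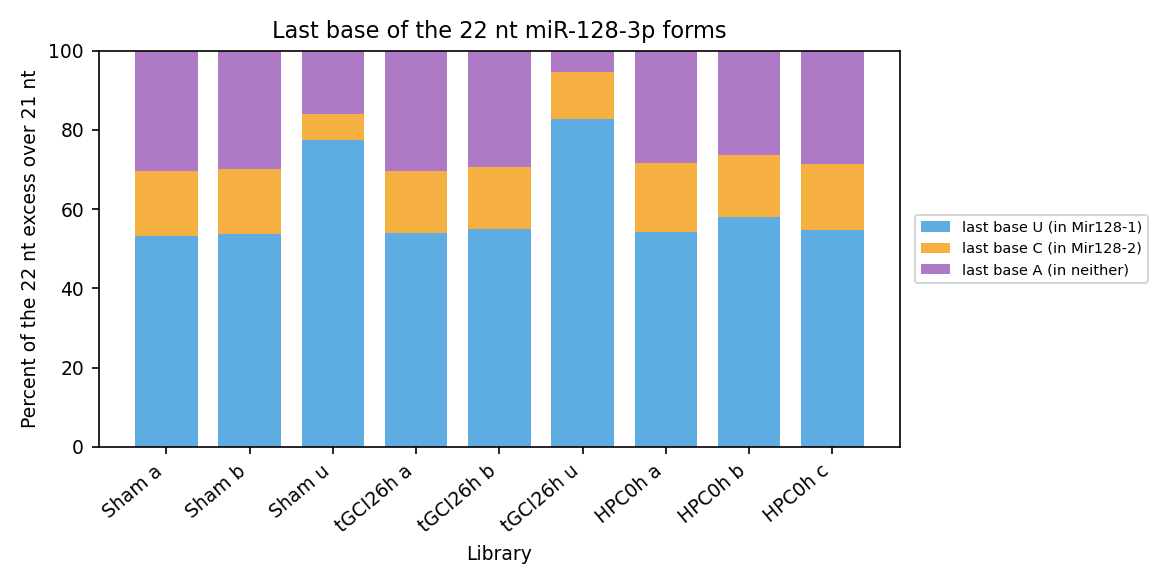
Percent of the summed excess of the 22 nt miR-128-3p forms over the 21 nt form that ends in U, C or A, as stacked bars for each library. The 7 numbered bars are alike, with 53.2% to 58.1% U and 26.2% to 30.4% A, and the bars of Sham u and tGCI26h u hold more U and less A.

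Since the U form occurs whole in Mir128-1 and the C form in Mir128-2, their ratio was followed by library. The ratio of the U to the C excess was 3.23 and 3.27 in Sham a and b, 3.46 and 3.56 in tGCI26h a and b, and 3.13, 3.72 and 3.28 in HPC0h a, b and c, so that the tGCI26h values were above the Sham values and inside the HPC0h range. It was 12.2 in Sham u and 6.96 in tGCI26h u. The group means over all libraries were 6.24 in Sham, 4.66 in tGCI26h and 3.38 in HPC0h, and over the numbered libraries 3.25, 3.51 and 3.38. Without subtracting the 21 nt form, the means over all libraries were lower, at 2.46, 2.45 and 2.39. In the deposited values the U and C forms held 22192 and 8581 tags in Sham u and 21523 and 9268 in tGCI26h u. They held 41210 and 17351 in Sham a and 40910 and 16423 in tGCI26h a. The high ratios of Sham u and tGCI26h u thus arise with the subtraction. A U or C added after cutting would look the same as an encoded base, and the origin of these tags in either gene was not tested.

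A last base A that neither hairpin encodes made up a smaller share at positions 19 to 21 than at position 22. At position 21, novel_8179_x454, which ends in A where the mature form ends in U, exceeded the 20 nt form by 470, 493 and 265 tags for Sham a, b and u, by 422, 404 and 0 for tGCI26h and by 497, 434 and 499 for HPC0h.
novel_8179_x454: uCACAGUGaaccggucucuuA
As a share of the excess of all listed last bases, A made up 9.09% to 12.1% at position 19, 7.54% to 8.42% at position 20, 5.77% to 6.97% at position 21 and 26.2% to 30.4% at position 22 in the numbered libraries. The excess of all bases at position 19 was only 44 to 66 tags, so that share rests on few tags. In tGCI26h u the A share was 0 at positions 19 to 21 and 5.29% at position 22.

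The 5′ end decides the seed, and a few listed sequences have another one. Of the 29 forms above 0, 23 had the miR-128-3p seed, 4 began 1 base upstream with a C that both hairpins have, 1 began 1 base downstream and 1 began with an AA that neither hairpin has. These are counts of listed sequences, and not all have tags beyond the shorter form they contain: the excess was 0 in all 9 libraries for novel_932_x11261 (upstream C) and novel_12461_x256 (AA), and for novel_2025_x3378 (upstream C) it was 0 or 1 in the numbered libraries, 20 in Sham u and 0 in tGCI26h u. Beginning 1 base upstream gives the seed UCACAGU, which is that of miR-27a-3p and miR-27b-3p, microRNAs known for regulating fat cell differentiation. The longest such form is shown with the entry identical to miR-27b-3p, and with the form that begins downstream, with each one's seed in capitals.
novel_10414_x327: cUCACAGUgaaccggucucuu
novel_4289_x1125: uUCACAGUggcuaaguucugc
novel_8529_x429: cACAGUGAaccggucucuuu
For novel_10414_x327 the Sham values a, b and u were 419, 410 and 1306 tags, the tGCI26h values 388, 396 and 2660 and the HPC0h values 451, 461 and 512. Outside tGCI26h u nearly all of this is matched by the 20 nt form it contains. It exceeded that form by 17 to 21 tags in the 7 numbered libraries, by 86 in Sham u and by 1288 in tGCI26h u. The excess was 4.10% to 4.80% of its value in the numbered libraries, 6.58% in Sham u and 48.4% in tGCI26h u, where 1 library decides the value. The values of novel_4289_x1125 were 17003, 14499 and 11959 tags for Sham, 13268, 11874 and 13403 for tGCI26h and 15389, 13706 and 16349 for HPC0h, in the same order of libraries. The Sham range overlapped both other groups, and every HPC0h value was above every tGCI26h value. How many of all entries separate in this way over the 9 libraries was not counted. By the same measure it stood far above the miR-128-3p forms with the shifted seed in every library.

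Entries of the other arm of each hairpin were only 18 or 19 nt long and held few tags. The miR-128-3p forms novel_3_x7189481 (18 nt) and novel_14_x3176134 (19 nt) also averaged only 7.14 and 52.6 tags in the numbered libraries. How abundant the other arm is therefore cannot be read from these entries. The 2 entries that match miR-128-1-5p were at 0 or blank in all libraries but Sham u, where novel_5051_x896 held 20 tags. The 2 that match miR-128-2-5p reached 1 tag, in novel_4151_x1178 in tGCI26h a, and were at 0 or blank elsewhere. The 12 entries that share 16 bases with miR-27a-3p are the same 12 that share them with miR-27b-3p, so these were not separated. Their sum lay between 12921 and 18414 tags in the numbered libraries.

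The comparisons between groups ask whether miR-128-3p forms of CA1 differ after ischemia or in the HPC0h group. They were tested with limma on log2(value + 1), in which all 9 libraries and all 2824 entries with a mean of at least 1 tag entered, with Benjamini-Hochberg adjustment over all of them. The 29 forms above 0 all passed that filter. In tGCI26h against Sham, limma called 0 of the 29 at an adjusted p below 0.05 (0% of all entries were called) and 0 at an unadjusted p below 0.05 (1.38% of all entries); the smallest adjusted p of a form was 0.781. The log2 difference was -0.08 ± 0.36 (SE) for novel_2237_x2877, -0.20 ± 0.52 for novel_4016_x1232, -0.07 ± 0.42 for novel_12796_x247 and -0.08 ± 0.42 for novel_433_x32354. Of the 29, 2 were above 0, against 56.6% of all entries, and the median was -0.18, against 0.14 over all entries. Median-of-ratios scaling gave -0.56 for novel_2237_x2877 and a median of -0.63 over the forms, against 0.06 over all entries.

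In HPC0h against Sham, 0 of 29 forms passed (0% of all entries), 0 had an unadjusted p below 0.05 (0.744% of all entries), and the smallest adjusted p was 0.822. novel_2237_x2877 differed by 0.37 ± 0.36 in log2, novel_4016_x1232 by 0.40 ± 0.52, novel_12796_x247 by 0.41 ± 0.42 and novel_433_x32354 by 0.14 ± 0.42. The 18 nt form novel_3_x7189481 lay on the other side of 0, at -1.15 ± 1.40. In the numbered libraries the differences were 0.04 for novel_2237_x2877, -0.07 for novel_4016_x1232, 0.05 for novel_12796_x247 and 0.16 for novel_3_x7189481, so Sham u sets the larger values with 9 libraries. Of the 29, 11 were above 0, against 61.4% of all entries, with a median of -0.31 against 0.53 over all entries. The median turned to 0.16, against 0.21 over all entries, in the numbered libraries.

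In HPC0h against tGCI26h, 0 of 29 passed (0% of all entries), 0 had an unadjusted p below 0.05 (0.283% of all entries), and the smallest adjusted p was 0.722. The log2 differences of the 4 abundant forms were 0.45 ± 0.36, 0.60 ± 0.52, 0.49 ± 0.42 and 0.22 ± 0.42, in the order above, and 16 of 29 forms were above 0, against 72.1% of all entries, with a median of 0.45 against 0.72 over all entries. These sizes depended on the scaling and on tGCI26h u: median-of-ratios scaling gave 1.23, 1.38, 1.27 and 1.00 for the same 4 forms, and the numbered libraries 0.14, 0.05, 0.21 and 0.27. A missed threshold does not show that the groups are alike, and the SE of 0.36 to 0.52 in log2 for the 22 nt forms limits what could be seen.

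In the 7 numbered libraries the values were tighter, and again no form passed. The smallest adjusted p was 0.444 in tGCI26h against Sham, 0.223 in HPC0h against Sham and 0.408 in HPC0h against tGCI26h, while limma called 0.844%, 1.38% and 0.46% of 2608 entries. At an unadjusted p below 0.05 there were 0, 4 and 18 of 29 forms, beside 12.6%, 13.4% and 7.02% of all entries. The 18 were all higher in HPC0h, by small amounts. novel_433_x32354 differed by 0.27 ± 0.06 in log2 from tGCI26h, with 7527 to 8074 tags in HPC0h and 6463 and 6577 in tGCI26h, and novel_84_x348008 differed by 0.28 ± 0.07. The 22 nt form novel_2237_x2877 differed by 0.14 ± 0.11, and its groups overlapped, since HPC0h c at 40486 was below tGCI26h a and b at 40910 and 41356. The log2 difference was above 0 in 0 of 29 forms for tGCI26h against Sham (70.4% of all entries), in 28 for HPC0h against Sham (78.2%) and in 29 for HPC0h against tGCI26h (53.8%). Both tGCI26h values were below both Sham values in 21 of 29 forms, against 7.71% of all entries, and above them in 0, against 27.8%. Every HPC0h value was above both Sham values in 5 of 29, against 18% of all entries, and below them in 0, against 4.03%. Every HPC0h value was above both tGCI26h values in 21 of 29, against 8.9% of all entries, and below them in 0, against 3.34%. Because the forms contain each other and share tags, these counts are not so many independent observations, and the comparisons share libraries. Several of the forms also held only a few rounded tags. A set of 4 with identical values, novel_3_x7189481 among them, had 7 and 7 in Sham, 6 and 6 in tGCI26h and 7, 8 and 9 in HPC0h. Another set of 4 had 5 and 5, then 4 and 4, then 5, 5 and 6. Both sets are among the 18 and among the 21 of either comparison, and they separate by as little as the rounding step.

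**Figure D4:**
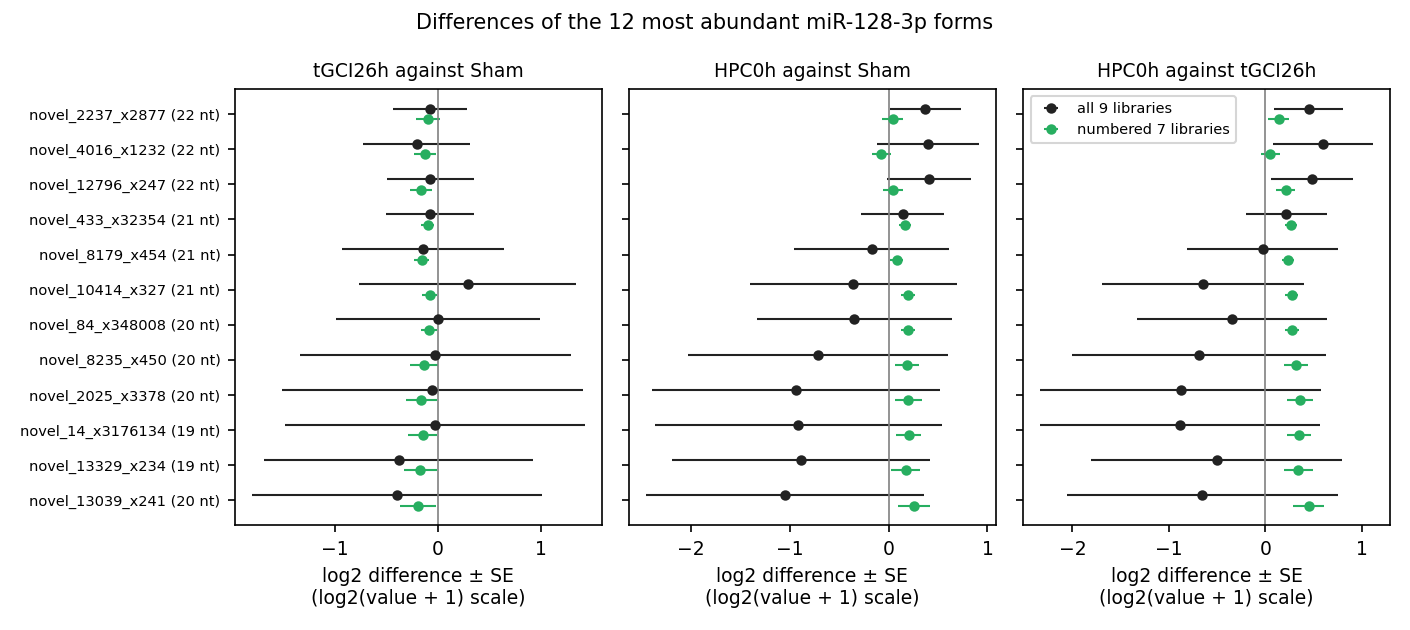
Log2 difference (log2(value + 1) scale) with its SE from limma for the 12 most abundant miR-128-3p forms in the 3 comparisons, with all 9 libraries in black and the 7 numbered libraries in green. No form passed in either fit, and the wide black bars of the shorter forms shrink when Sham u and tGCI26h u are left out.

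The ratio of the 22 nt form novel_2237_x2877 to the 18 nt form novel_3_x7189481 does not depend on the scaling of a library, apart from the pseudocount of 1. On the log2 scale its values were 12.33, 12.52 and 7.51 for Sham a, b and u, 12.51, 12.53 and 8.26 for tGCI26h a, b and u and 12.59, 12.33 and 11.98 for HPC0h a, b and c. The mean of tGCI26h was 0.32 above Sham, that of HPC0h 1.52 above Sham and 1.20 above tGCI26h, with exact two-sided permutation p of 0.6, 0.6 and 0.8 (n = 3 each; 0.8 each adjusted over the 3), where 0.1 is the smallest that 3 against 3 allows. In the numbered libraries the difference of HPC0h turned, to -0.12 from Sham and -0.22 from tGCI26h, with permutation p of 0.8 and 0.6. There novel_3_x7189481 held only 6 to 9 rounded tags, so the ratio is sensitive to rounding.

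The number after x in an entry's name, whose meaning is not stated, ran against the values along the length series. It fell at each added base, from novel_3_x7189481 over novel_14_x3176134, novel_84_x348008 and novel_433_x32354 to novel_2237_x2877, while the mean value in the numbered libraries went from 7.14 to 43832. Of the 29 forms above 0, novel_3_x7189481 has the largest number in its name and held at most 9 tags in any numbered library.

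**Figure D5:**
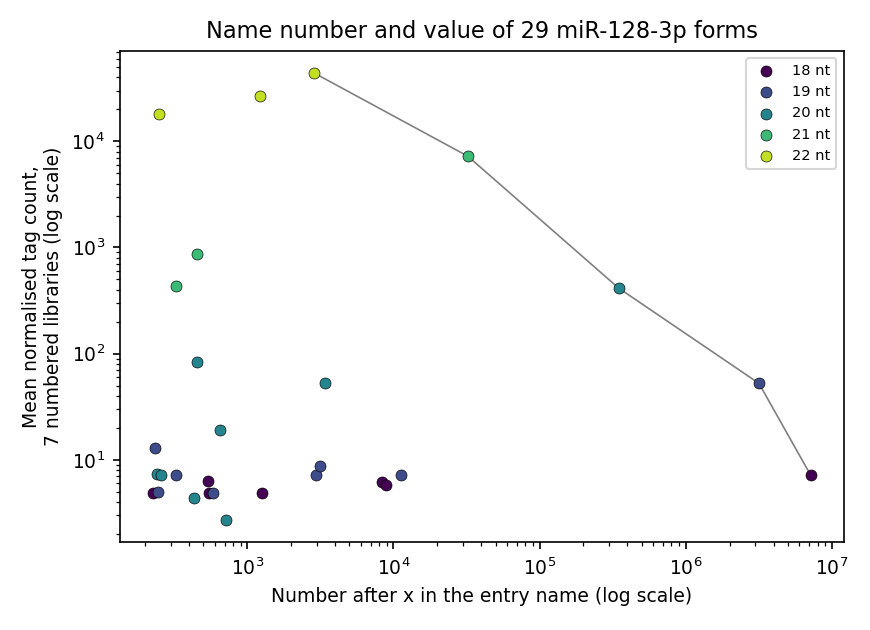
Mean normalised tag count in the 7 numbered libraries (log scale) against the number after x in the entry name (log scale) for the 29 miR-128-3p forms above 0, coloured by length, with a line through the 18 to 22 nt forms of the same 5′ end. Along the line the name number falls from its highest to a far lower one as the value goes from 7.14 to 43832.

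Among the 375 entries outside the family with a mean of at least 100 tags, those whose log2(value + 1) ran closest to the summed 40 forms over the 9 libraries matched miR-129-5p (novel_1243_x7221, Pearson r = 0.98), miR-127-3p (novel_10902_x308, 0.97, and novel_175_x121470, 0.96) and miR-126a-3p (novel_14841_x201, 0.97), with a 35 nt entry that matches no listed microRNA (novel_9098_x393, 0.96). Over the 7 numbered libraries the same r values were 0.66, 0.77, 0.67, 0.31 and -0.13, in the order novel_1243_x7221, novel_10902_x308, novel_175_x121470, novel_14841_x201 and novel_9098_x393, so the likeness over 9 libraries rests on Sham u and tGCI26h u, where all 5 had their lowest values.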

How the data were processed

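Libraries were made from Trizol-extracted RNA by adaptor ligation, reverse transcription and PCR, with a size selection aimed at piRNAs, which are longer than microRNAs, and were sequenced on an Illumina instrument, per the labels' protocols. Tools given in the submitters' processing notes, with no role stated, are cutadapt 1.9.3 and Novoalign 3.02.12. The build, the rule that predicted the uncatalogued entries and the treatment of reads that match several entries are not given in the sources used here. Each deposited value is treated as a score, since per the file headers the authors normalised the tag counts, and the columns show that they were rounded. Headings were assigned to groups by Sham or S, by 26 (tGCI26h) and by P (HPC0h); they carry no replicate number of the labels. No source says that libraries come from separate animals. A p-value here sets a group difference against the spread between these libraries only, and may not extend to animals.

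Blanks were read as 0. limma 3.58.1 (R 4.3.3) was run with an intensity trend on log2(value + 1), with the 3 groups in 1 fit. It was also run on simulated data in which no library stood apart. That run therefore does not show how the test performs on these data. Sequences and hairpins were read from RefSeq (GRCr8). The named entries are both leading entries, the most abundant forms by mean up to 12, the microRNAs listed by name and the 5 entries most like the sum. The forms, lists and tests were chosen with earlier results of these data known, and the excess and the last-base shares were added after the values were seen. Entries with a run of 14 or 18 bases, other pseudocounts, filters, scalings and fits, and left-out libraries were tried.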

Additional observations from a re-analysis of the deposited data

How the results depend on the processing

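In every alternative run, 0 forms were called in each comparison, although sizes and directions moved. The log2 ratio of group means of the summed forms was -0.10 for tGCI26h against Sham and turned to 0.084 without Sham b and 0.11 without tGCI26h u, with -0.33 without Sham u. For HPC0h against Sham it went from 0.26 to 0.024 without Sham u, and for HPC0h against tGCI26h from 0.36 to 0.15 without tGCI26h u. With a shared run of 18 bases 25 entries were members, and with 14 bases 45. The 8 members that share exactly 16 bases held at most 7 tags, and the 5 entries just outside, with 14 or 15 bases, were at 0 or blank everywhere. The group difference in the log2 ratio of novel_2237_x2877 to novel_3_x7189481 ranged from -1.32 to 1.73 (tGCI26h against Sham), -0.12 to 2.38 (HPC0h against Sham) and -0.22 to 1.91 (HPC0h against tGCI26h) when single libraries were left out, and was -0.12 and -0.22 in the last 2 in the numbered libraries. With single libraries left out, log2 differences in tGCI26h against Sham ranged from -0.41 to 0.23 for novel_2237_x2877, -0.68 to 0.35 for novel_4016_x1232, -0.44 to 0.20 for novel_12796_x247 and -1.50 to 0.91 for novel_3_x7189481. In HPC0h against Sham they ranged from -0.074 to 0.67 for novel_4016_x1232 and -1.80 to 0.16 for novel_3_x7189481, and in HPC0h against tGCI26h from -1.30 to 0.36 for novel_3_x7189481. Quantile normalisation turned tGCI26h against Sham to 0.088 for novel_12796_x247 and 0.011 for novel_433_x32354, and median-of-ratios scaling turned HPC0h against tGCI26h to 0.012 for novel_3_x7189481. The same scaling raised HPC0h against tGCI26h to between 1.00 and 1.38 for the 4 abundant forms, and HPC0h against Sham to between 0.44 and 0.71, and lowered tGCI26h against Sham to between -0.69 and -0.56. The numbered libraries gave -0.074 for novel_4016_x1232 and 0.16 for novel_3_x7189481 in HPC0h against Sham, and 0.36 for novel_3_x7189481 in HPC0h against tGCI26h. The cause of these turns was not tested. Quantile normalisation moved the median of all entries by -0.18 and -0.14 in tGCI26h and HPC0h against Sham. No paired analysis was possible because the column headings carry none of the labels' replicate numbers. Depth is unknown, so values of a few tags cannot be weighed.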

Other observations

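Fewer of the 40 forms had a value above 0 in the unnumbered libraries: 29 in each numbered library, 23 in Sham u and 17 in tGCI26h u. novel_8529_x429, which begins 1 base downstream, held 4 tags in Sham a, Sham b, tGCI26h a, tGCI26h b and HPC0h a, 5 and 6 in HPC0h b and c, 58 in Sham u and was blank in tGCI26h u. The 4 forms novel_13693_x225, novel_3950_x1265, novel_6894_x579 and novel_7182_x543, which depart from miR-128-3p after its base 16, shared 1 set of values, at most 6 tags in any library and none in Sham u or tGCI26h u.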
